A study of Mus musculus with 12 samples.

Results

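The autophagy machinery genes described here are 38 transcripts that build and fill the autophagosome. They are the rows of the deposited FPKM table that carry 1 of 40 listed symbols and average 1 FPKM or more across the 12 libraries, out of 23234 genes in the table and 10305 at or above that average. All 38 listed symbols that the table holds passed that level. The other 2 symbols, Atg101 and Rubcn, are not symbols of the table, whose rows 9430023L20Rik and 1700021K19Rik carry the older names RefSeq gives for them, so they are described apart and counted nowhere.

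The libraries came from total RNA of mouse primary acute myeloid leukaemia cells of the NRASG12V/Mll-AF9 genotype from F1 animals of the cross FVB/n X C57/BL/6J. Every group carried both oncogenes, NRAS with the G12V change and the MLL-AF9 fusion, and was kept in medium with serum and GM-CSF for 24 h. The 4 groups of 3 libraries received DMSO as vehicle, PD325901 at 20 µM (an inhibitor of MEK1 and MEK2), RAD001 at 26 µM (everolimus, an inhibitor of mTOR complex 1) or GDC0941 at 20 µM (an inhibitor of class I PI3 kinases). Neither how many mice or cultures the libraries came from, nor the promoter that drives the oncogenes, is given in the sources used here, so p-values measure only the spread between these samples, which may be technical.

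Autophagy wraps cytoplasm in a double membrane and delivers it to the lysosome. The ULK1 kinase complex starts the process, a class III PI3 kinase marks the membrane with PI3P, ATG9 and ATG2 supply lipid, and 2 conjugation systems attach the ubiquitin-like ATG8 proteins (LC3 and GABARAP) to the membrane, where cargo receptors dock. In nutrient-rich cells mTOR complex 1 holds the ULK1 complex and the transcription factor TFEB inactive through phosphorylation, and both ERK and AKT signalling feed into that control. Transcript levels do not measure how much cargo is degraded.

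The upstream sequences of Atg3, Atg5 and Atg7 are shown because these were the 3 of 31 members with an entry in the RefSeq promoter table (GRCm38.p6) whose 250 bases before the annotated start hold CACGTG, the core that TFEB and its relatives, and also MYC and USF factors, can bind. That share was 9.68% of members, beside 6.86% of the 27025 genes in the table. Capitals mark CACGTG or, at 1 place in Atg3, the longer TCACGTGA that contains it, which 0.907% of genes hold. The motif GTAAACA, a FOXO type sequence, was in the windows of 0 of 31 members and 3.54% of genes, with both strands searched. The windows lie on the plus strand at chr16:45158579-45158828, chr10:44268089-44268338 and chr6:114670846-114671095.
Atg3: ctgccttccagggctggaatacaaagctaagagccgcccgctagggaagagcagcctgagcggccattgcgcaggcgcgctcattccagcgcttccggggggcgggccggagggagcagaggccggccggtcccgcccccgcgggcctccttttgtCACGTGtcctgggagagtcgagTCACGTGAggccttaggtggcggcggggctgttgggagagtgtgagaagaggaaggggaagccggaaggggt
Atg5: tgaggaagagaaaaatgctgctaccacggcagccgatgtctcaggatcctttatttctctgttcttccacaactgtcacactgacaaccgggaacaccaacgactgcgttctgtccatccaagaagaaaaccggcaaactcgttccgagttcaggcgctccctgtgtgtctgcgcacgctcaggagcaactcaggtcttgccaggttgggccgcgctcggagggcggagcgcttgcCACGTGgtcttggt
Atg7: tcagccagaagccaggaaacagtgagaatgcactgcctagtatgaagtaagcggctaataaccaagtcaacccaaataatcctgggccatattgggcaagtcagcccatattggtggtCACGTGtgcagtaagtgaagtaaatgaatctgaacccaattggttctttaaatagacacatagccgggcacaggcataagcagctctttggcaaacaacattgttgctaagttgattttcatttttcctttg
The motif begins 94 and 71 bases before the annotated start of Atg3, 14 bases before that of Atg5 and 132 bases before that of Atg7. A match says only that these letters are present.

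Values are FPKM, which are scaled to transcript length, so levels of different genes can be compared. Log2 changes are differences of log2(FPKM + 1) between group means from a limma fit of all 12 libraries, given ± SE, with Benjamini-Hochberg adjusted p over the 10305 genes and a threshold of 0.05. Adding 1 FPKM understates the change of low genes. Replicate 1 stood apart in every group. Its Spearman correlation with the other 2 libraries of its group was 0.966 to 0.985, against 0.987 to 0.996 between replicates 2 and 3. The myeloid markers Ptprc, Itgam, Csf2ra, Csf2rb and Cebpa were at 30.9 FPKM or more in every library. Mpo was at 23.1 ± 0.796 FPKM (SD, n = 3) with DMSO, 19.4 ± 3.42 with PD325901, 2.25 ± 2.08 with RAD001 and 3.94 ± 0.660 with GDC0941, Spi1 was not among the symbols, and Lyz2 was listed at 0 in all 12 libraries and is not interpreted. The lists for stromal and endothelial cells and for erythroid cells summed to at most 3.54 FPKM in any library, and the B and T cell lists to at most 8.36 FPKM. The 7 myeloid symbols in the table summed to 767 to 779 FPKM with DMSO and 863 to 891 with PD325901. Their sum was 1790 to 1890 FPKM with RAD001 and 1030 to 1140 with GDC0941. Of the 6 tested, 3 rose with PD325901, 4 with RAD001 and 3 with GDC0941 (50%, 66.7% and 50%, beside 18.4%, 15.4% and 11.6% of all genes). With each inhibitor 1 fell (16.7%, beside 28.2%, 15.9% and 12.7%). The neutrophil, macrophage and megakaryocyte lists also moved with the groups and are given after the results.

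In DMSO the members lay between percentile 6.19 and percentile 98.7 of the genes tested, with a median of 12.5 FPKM beside 11.3 FPKM for all genes tested. The cargo receptor Sqstm1 (621 ± 311 FPKM, SD, n = 3) and the ATG8 gene Gabarap (420 ± 3.42 FPKM) were the most abundant. Map1lc3b (78.1 ± 0.782 FPKM), Becn1 (53.4 ± 3.67 FPKM) and Vmp1 (52.4 ± 6.74 FPKM) came next, and Becn1 and Vmp1 differed by less than their spread. The receptor gene Optn was the lowest at 1.74 ± 0.393 FPKM. The ULK complex genes Ulk1, Ulk2 and Rb1cc1 were at 5.08 to 7.12 FPKM. No member was listed at 0 in any library.

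With PD325901 15 of 38 members rose and 1, Sqstm1, fell by limma, or 39.5% higher and 2.63% lower, beside 18.4% higher and 28.2% lower among all genes tested. The median log2 change was 0.22 for the members and -0.06 for all genes. The PD325901 and DMSO libraries did not overlap for 23 members that were higher (60.5%, beside 25.8% of all genes) and 2 that were lower (5.26%, beside 36.9%). With RAD001 13 members (34.2%) rose and 2 (5.26%) fell, beside 15.4% and 15.9% of all genes, with a median of 0.10 beside 0.00. Libraries did not overlap for 17 that were higher (44.7%, beside 25.3%) and 5 that were lower (13.2%, beside 25.6%). With GDC0941 6 members (15.8%) rose and 4 (10.5%) fell, beside 11.6% and 12.7% of all genes, and a share near that of all genes is no result about the members. Libraries did not overlap for 14 that were higher and 2 that were lower (36.8% and 5.26%, beside 20.3% and 18.3%). The 3 comparisons share the DMSO libraries.

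When replicate 1 of each group was left out, the counts were 16 higher and 1 lower with PD325901, 19 and 3 with RAD001, and 13 and 3 with GDC0941, beside 22% and 33.2%, 22.8% and 24.2%, and 18.9% and 23.1% of all genes. Of the 16, 15 and 10 calls with all libraries, 12, 10 and 5 held when any single library was left out. After quantile normalization 22 members rose and 1 fell with PD325901, beside 26.0% and 23.8% of all genes.

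**Figure D1:**
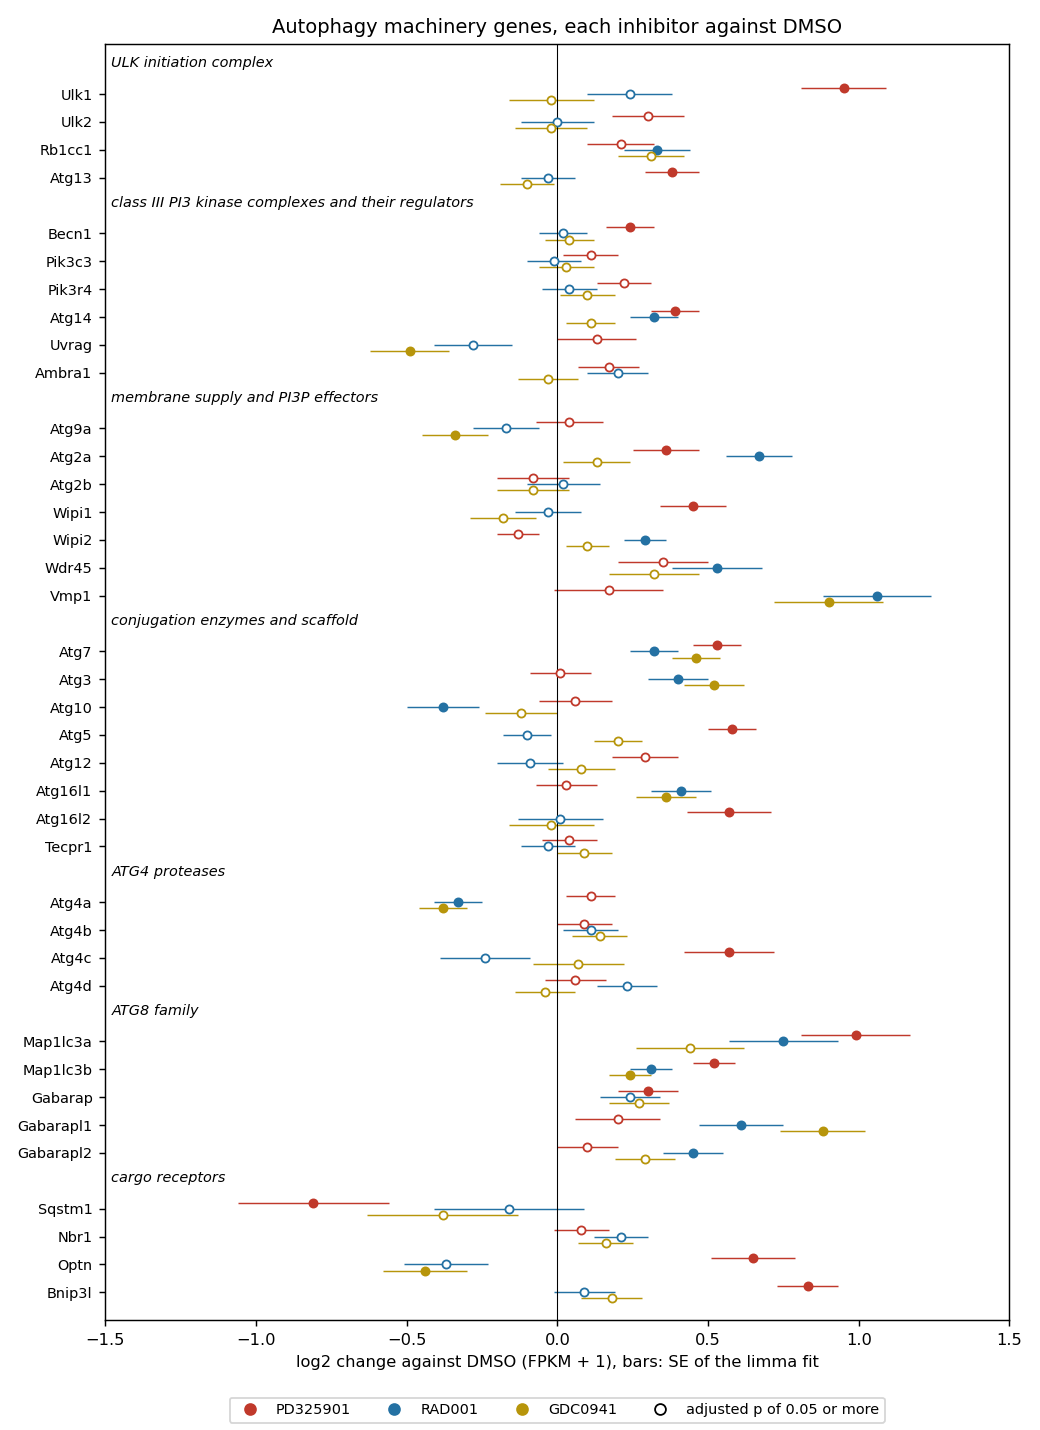
Log2 change of each of the 38 members against DMSO by role (x axis, log2 of FPKM + 1; points, limma estimates; lines, SE; filled points, adjusted p under 0.05). Red PD325901 points reach 0.99 for Map1lc3a, while the blue RAD001 and ochre GDC0941 points for Vmp1 lie at 1.06 and 0.90.

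Of the initiation complex, Ulk1 had the largest change, 2.06 times the DMSO mean with the MEK inhibitor. Ulk1, the kinase that mTOR complex 1 restrains, was at 6.46, 7.10 and 7.80 FPKM with DMSO and at 12.7, 15.6 and 15.8 FPKM with PD325901. RAD001 gave 7.52, 9.10 and 9.29 FPKM and GDC0941 5.38, 8.11 and 7.79 FPKM. The PD325901 libraries were the highest and overlapped no other group (log2 change 0.95 ± 0.14 against DMSO, adjusted p = 3.63e-04). Against RAD001 and GDC0941 the difference was 0.70 ± 0.14 and 0.97 ± 0.14, which passed the limma threshold in both (adjusted p = 0.00187 and 2.10e-04). The log2 changes of Ulk1 for RAD001 (0.24 ± 0.14) and GDC0941 (-0.02 ± 0.14) against DMSO did not pass, that of RAD001 at adjusted p = 0.219, or 0.0495 with the replicate number as a block and 0.0218 without replicate 1 of every group.

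Atg13, the adaptor that binds ULK1 to its scaffold, rose with PD325901 (0.38 ± 0.09) and was higher there than with RAD001 (0.41 ± 0.09) or GDC0941 (0.48 ± 0.09). Rb1cc1, the scaffold FIP200, rose with RAD001 (0.33 ± 0.11, adjusted p = 0.0437 by limma), a call lost when any 1 DMSO library, or RAD001 replicate 2 or 3, was left out (adjusted p = 0.0698 to 0.153), with no filter (0.0703) or with median-ratio scaling (0.0526). The GDC0941 change of Rb1cc1 (0.31 ± 0.11, adjusted p = 0.0626) passed without GDC0941 replicate 1 (0.0440). Ulk2, the second ULK kinase, was at 0.30 ± 0.12 with PD325901 (adjusted p = 0.0551, or 0.0344 with the replicate block). The row 9430023L20Rik, the older name of Atg101, a partner of ATG13, was at 23.2 ± 2.06 FPKM with DMSO and rose with RAD001 (0.33 ± 0.11).

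Among the class III PI3 kinase genes the changes were small. Becn1, the scaffold Beclin 1 and the most abundant of them, was at 49.2, 55.3 and 55.8 FPKM with DMSO and at 65.8, 62.3 and 61.8 FPKM with PD325901. With RAD001 it was at 52.2, 56.6 and 53.4 FPKM and with GDC0941 at 50, 54.7 and 60.8 FPKM. All PD325901 libraries lay above the others (0.24 ± 0.08 against DMSO, adjusted p = 0.0341 by limma). That call was lost when DMSO replicate 1 or 2, or any 1 PD325901 library, was left out (adjusted p = 0.0534 to 0.123), and without replicate 1 of every group (0.0880).

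Atg14, which directs the kinase to the forming autophagosome, rose with PD325901 (0.39 ± 0.08) and RAD001 (0.32 ± 0.08), the latter not without DMSO replicate 2 or RAD001 replicate 2 (adjusted p = 0.0515 and 0.0634). Uvrag, which takes the place of ATG14 in the late endosomal complex, fell with GDC0941 (-0.49 ± 0.13, adjusted p = 0.0178), but not without DMSO replicate 2 or 3 (adjusted p = 0.0640 and 0.0504) or with only the 2 groups compared (0.0801). The genes of the lipid kinase Pik3c3 (VPS34), its regulatory subunit Pik3r4 (VPS15) and the Beclin 1 partner Ambra1 did not pass against DMSO with all libraries, at log2 changes of -0.03 to 0.22. The highest of these, Pik3r4 with PD325901 (adjusted p = 0.0511), passed without replicate 1 of every group (0.0231) and with median-ratio scaling (0.0114). Rubicon, a brake on the UVRAG complex, which the table holds as 1700021K19Rik, rose with PD325901 (0.28 ± 0.10) from 4.71 ± 0.269 to 5.91 ± 0.305 FPKM.

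Among genes of membrane supply, Vmp1 had the largest change of any member against DMSO. Vmp1 encodes an endoplasmic reticulum protein needed for phagophore growth. Its level was 59.7, 46.3 and 51.3 FPKM with DMSO, 66.2, 52.0 and 58.7 FPKM with PD325901, and 104, 111 and 114 FPKM with RAD001. With GDC0941 it was 70.0, 109 and 125 FPKM. The RAD001 and GDC0941 libraries lay above all DMSO and PD325901 libraries (1.06 ± 0.18 and 0.90 ± 0.18 against DMSO, adjusted p = 0.00145 and 0.00471 by limma), GDC0941 replicate 1 being the lowest of the 6. PD325901 differed from RAD001 by -0.89 ± 0.18 and from GDC0941 by -0.74 ± 0.18 (adjusted p = 0.00177 and 0.00550). The primary transcript of the microRNA miR-21 overlaps the end of Vmp1, and FPKM per symbol do not tell these RNAs apart.

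Atg2a, a lipid transfer protein that bridges the reticulum and the phagophore, was at 6.82, 6.36 and 6.72 FPKM with DMSO, 8.36, 9.58 and 8.55 FPKM with PD325901 and 9.87, 12.2 and 11.5 FPKM with RAD001. With GDC0941 it was at 6.45, 8.46 and 7.25 FPKM, which overlapped DMSO. It rose with RAD001 (0.67 ± 0.11, adjusted p = 9.19e-04 by limma), to a level above that with GDC0941 as well (0.54 ± 0.11, adjusted p = 0.00624, or 0.0568 in a fit of the 2 groups alone). The rise with PD325901 (0.36 ± 0.11, adjusted p = 0.0152) ended without DMSO replicate 2 or PD325901 replicate 2 (adjusted p = 0.0527 and 0.0632). Its paralog Atg2b was at -0.08 to 0.02 against DMSO and did not pass.

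The PI3P binding propellers did not share a pattern. Wipi1 rose with PD325901 (0.45 ± 0.11), where it was higher than with RAD001 (0.48 ± 0.11) and GDC0941 (0.63 ± 0.11). Wipi2, which recruits ATG16L1, rose with RAD001 (0.29 ± 0.07) and was higher there than with PD325901, which differed by -0.41 ± 0.07. Wdr45, or WIPI4, the partner of ATG2, was at 13.5, 11.3 and 10.1 FPKM with DMSO, 16.9, 14.7 and 13.7 FPKM with PD325901, 13.9, 19.3 and 18.7 FPKM with RAD001 and 12.3, 15.4 and 16.5 FPKM with GDC0941. With all libraries only the RAD001 change of Wdr45 passed (0.53 ± 0.15, adjusted p = 0.0197 by limma), and not without replicate 2 or 3 of DMSO or of RAD001 (adjusted p = 0.0616 to 0.0817). The PD325901 change of Wdr45 (0.35 ± 0.15, adjusted p = 0.0724) passed without DMSO replicate 1 (0.46, adjusted p = 0.0423), with median-ratio or quantile scaling (0.0455 and 0.0332), and, like that of GDC0941 (0.32 ± 0.15), without replicate 1 of every group (0.38 and 0.53, adjusted p = 0.00421 and 8.83e-04). Atg9a, the vesicle scramblase, fell with GDC0941 (-0.34 ± 0.11, adjusted p = 0.0425), a call lost when any 1 DMSO library, or GDC0941 replicate 2 or 3, was left out (adjusted p = 0.0741 to 0.145), with no filter (0.0574) or in a fit of the 2 groups alone (0.140).

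Of the 8 genes of conjugation enzymes and scaffold, 3 rose with each inhibitor (37.5%, beside 18.4%, 15.4% and 11.6% of all genes). With RAD001 1 fell (12.5%, beside 15.9%), and 0 fell with PD325901 or GDC0941 (beside 28.2% and 12.7%). Some of these genes differed between the inhibitors. Atg7, the E1-like enzyme that activates both ATG12 and the ATG8 proteins, rose with all 3. Its level was 27.1 ± 0.0148 FPKM with DMSO (27.1 FPKM in each library). It was 45.4, 37.7 and 36.5 FPKM with PD325901, 34.1, 34.4 and 33.9 FPKM with RAD001, and 37.3, 36.4 and 38.9 FPKM with GDC0941, every one above DMSO. The log2 changes of Atg7 were 0.53 ± 0.08, 0.32 ± 0.08 and 0.46 ± 0.08 (adjusted p = 3.36e-04, 0.0110 and 0.00244 by limma).

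Atg3, the E2-like enzyme that transfers ATG8 proteins to lipid, was at 45.4, 44.6 and 43.7 FPKM with DMSO and 47.6, 43.7 and 43.5 FPKM with PD325901, which overlapped. With RAD001 it was at 72.0, 53.6 and 53.8 FPKM and with GDC0941 at 63.9, 62.6 and 66.0 FPKM, all higher than DMSO. Both rises of Atg3 passed (0.40 ± 0.10 and 0.52 ± 0.10, adjusted p = 0.0124 and 0.00461 by limma), the first being 0.26 without RAD001 replicate 1 (adjusted p = 0.0174). PD325901 differed from RAD001 by -0.39 ± 0.10 and from GDC0941 by -0.51 ± 0.10 (adjusted p = 0.00812 and 0.00172). The former difference was -0.25 without RAD001 replicate 1.

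Atg5, which with ATG12 forms the ligase that places ATG8 on the membrane, showed the other pattern. It was at 18.8, 21.6 and 20.3 FPKM with DMSO and 31.8, 30.0 and 30.5 FPKM with PD325901. RAD001 gave 18, 19.7 and 18.6 FPKM and GDC0941 23.3, 22 and 25.0 FPKM. PD325901 stood above the rest (0.58 ± 0.08 against DMSO, adjusted p = 1.40e-04 by limma), by 0.68 ± 0.08 over RAD001 and 0.38 ± 0.08 over GDC0941 (adjusted p = 2.74e-05 and 0.00154). RAD001 and GDC0941 differed in Atg5 by -0.30 ± 0.08 (adjusted p = 0.0205), but not without RAD001 replicate 3 or GDC0941 replicate 3 (adjusted p = 0.0699 and 0.0573) or with only the 2 groups compared (0.0965).

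The paralogs Atg16l1 and Atg16l2 divided in the same way as Atg3 and Atg5. Atg16l1, the scaffold that sets where lipidation occurs, rose with RAD001 (0.41 ± 0.10) and GDC0941 (0.36 ± 0.10) and was at 0.03 ± 0.10 with PD325901. The GDC0941 call for Atg16l1 (adjusted p = 0.0209) ended without DMSO replicate 1 or 3 or GDC0941 replicate 2 or 3 (adjusted p = 0.0638 to 0.0724) and with only the 2 groups compared (0.0887). Atg16l2 was at 3.25, 3.30 and 3.21 FPKM with DMSO, 5.58, 5.85 and 4.64 FPKM with PD325901, 2.89, 3.67 and 3.35 FPKM with RAD001 and 2.38, 3.32 and 4.02 FPKM with GDC0941. Its PD325901 libraries overlapped no other group (0.57 ± 0.14 against DMSO, 0.56 ± 0.14 against RAD001 and 0.60 ± 0.14 against GDC0941, adjusted p = 0.00589, 0.00596 and 0.00391 by limma). Atg10, the E2-like enzyme for ATG12, fell with RAD001 (-0.38 ± 0.12, adjusted p = 0.0352), except when any 1 DMSO library, or RAD001 replicate 2 or 3, was left out (adjusted p = 0.0588 to 0.119), with no filter (0.0595) or after quantile normalization (0.0799). Atg12, the ubiquitin-like partner of ATG5, was at 0.29 ± 0.11 with PD325901 (adjusted p = 0.0515), which passed without DMSO replicate 1 (0.42, adjusted p = 0.00607) and without replicate 1 of every group (0.35, 0.00241). Atg12 was higher with PD325901 than with RAD001 (0.38 ± 0.11). With GDC0941 it was at 0.08 ± 0.11, or 0.27 without replicate 1 of every group (adjusted p = 0.0132). Tecpr1, a lysosomal tether of the ATG12 to ATG5 conjugate, was at -0.03 to 0.09 against DMSO and did not pass.

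The ATG4 proteases trim ATG8 proteins and release them from lipid. Of their 4 genes 1, Atg4c, rose with PD325901 (25%, beside 18.4% of all genes). Another, Atg4a, fell with RAD001 and with GDC0941 (25% each, beside 15.9% and 12.7%). Atg4c was at 5.87, 4.93 and 6.06 FPKM with DMSO and at 10.4, 6.68 and 9.78 FPKM with PD325901. It was at 4.06, 5.06 and 4.64 FPKM with RAD001 and at 6.50, 6.41 and 4.96 FPKM with GDC0941. The PD325901 libraries were again the highest (0.57 ± 0.15 against DMSO, adjusted p = 0.0104 by limma), with 0.81 ± 0.15 over RAD001 and 0.50 ± 0.15 over GDC0941. Atg4a fell with RAD001 (-0.33 ± 0.08, adjusted p = 0.0131) and GDC0941 (-0.38 ± 0.08, adjusted p = 0.00775), the first not without DMSO replicate 2 or 3 or RAD001 replicate 2 (adjusted p = 0.0524 to 0.0605) and the second not with only the 2 groups compared (0.0543). Atg4b, the main LC3 protease, and Atg4d were at -0.04 to 0.23 against DMSO and did not pass with all libraries, while Atg4d passed with RAD001 without replicate 1 of every group (adjusted p = 0.0392).

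**Figure D2:**
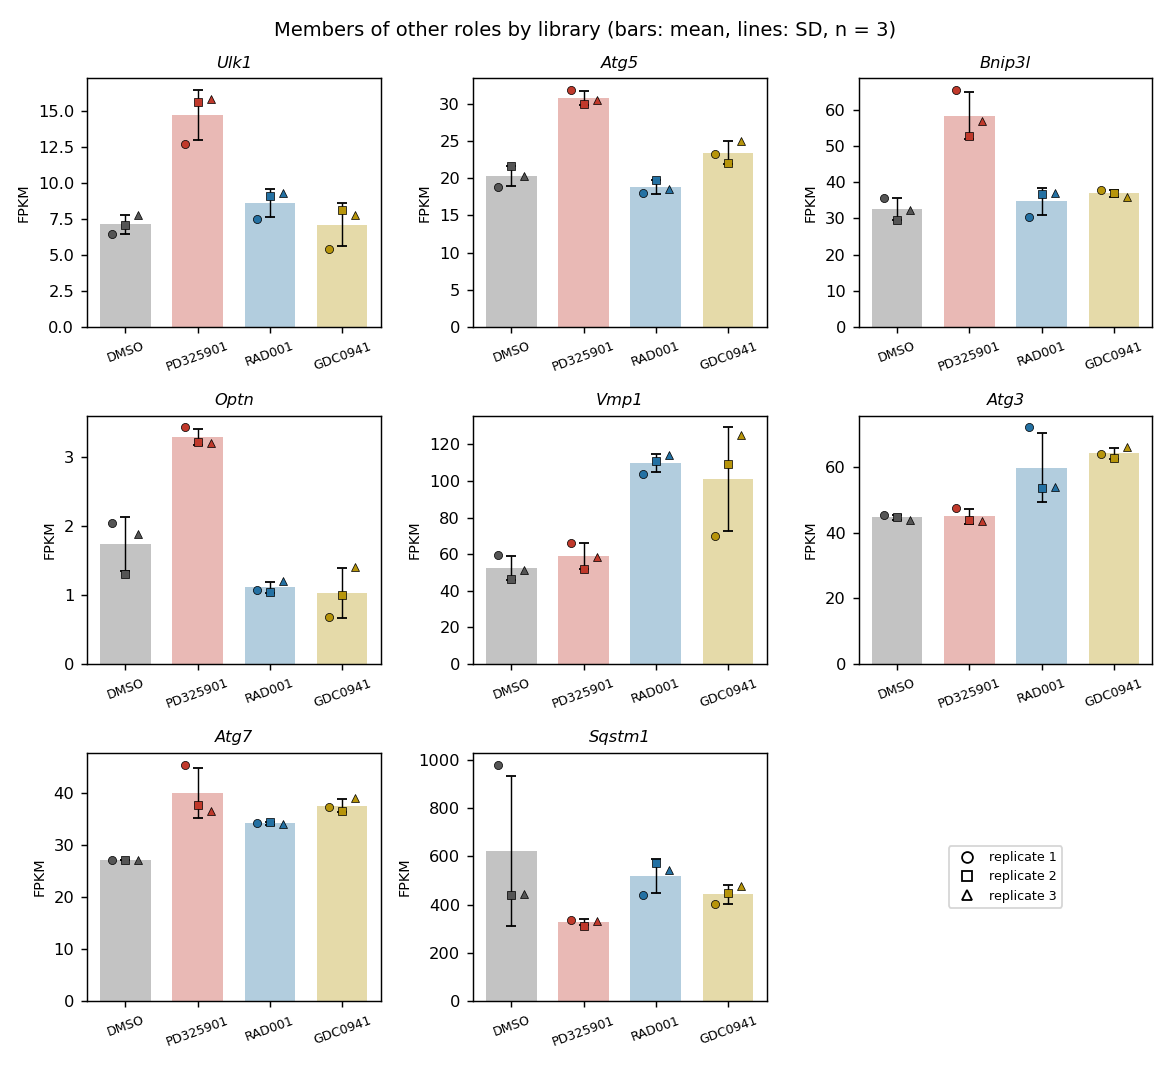
FPKM (y axis) of 8 members of roles other than ATG8 in each library by group (bars, mean; lines, SD, n = 3; circle, square and triangle, replicates 1, 2 and 3). Ulk1, Atg5, Bnip3l and Optn are highest in the PD325901 libraries, Vmp1 and Atg3 in the RAD001 and GDC0941 libraries, and the Sqstm1 bar for DMSO is carried by 980 FPKM in replicate 1.

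The ATG8 family, whose proteins coat the autophagosome and bind the receptors, was the role in which every member's estimate was positive with each inhibitor. Of its 5 genes 3 rose with PD325901, 4 with RAD001 and 2 with GDC0941, beside 18.4%, 15.4% and 11.6% of all genes, and 0 fell, beside 28.2%, 15.9% and 12.7%. Their summed level was 592 ± 9.02 FPKM with DMSO, 752 ± 98.0 with PD325901, 734 ± 21.9 with RAD001 and 740 ± 45.4 with GDC0941, each inhibitor library being above each DMSO library. The FPKM of all genes also summed higher with RAD001 (539014 to 587581) and GDC0941 (526634 to 578905) than with DMSO (487023 to 505374). With PD325901 they summed to 462335 to 531934. Most of the ATG8 sum was Gabarap, which did not pass with RAD001 or GDC0941 (adjusted p = 0.0991 and 0.0814 by limma). Which genes passed varied by inhibitor, but a call with 1 inhibitor and none with another is not a difference between them. Between RAD001 and GDC0941 0 of the 5 passed, beside 9.35% higher and 8.09% lower among all genes. Without replicate 1 of every group Gabarapl1 did (-0.34, adjusted p = 0.0365 by limma).

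The LC3 genes had their highest group means with PD325901. Map1lc3b, the LC3B commonly used as the autophagosome marker, was at 77.2, 78.6 and 78.5 FPKM with DMSO, 118, 111 and 110 FPKM with PD325901, 97.3, 97.2 and 96.1 FPKM with RAD001 and 84.1, 93.0 and 102 FPKM with GDC0941. No inhibitor library overlapped DMSO, and the changes were 0.52 ± 0.07, 0.31 ± 0.07 and 0.24 ± 0.07 (adjusted p = 2.21e-04, 0.00921 and 0.0341 by limma). The RAD001 call ended after quantile normalization (adjusted p = 0.0578). The GDC0941 call was lost when any 1 DMSO library, or GDC0941 replicate 2 or 3, was left out, with median-ratio or quantile scaling, and with only the 2 groups compared (adjusted p = 0.0756 to 0.117). PD325901 exceeded GDC0941 in Map1lc3b by 0.28 ± 0.07 (adjusted p = 0.00796), or 0.18 without replicate 1 of every group. It exceeded RAD001 by 0.22 (adjusted p = 0.0293), a call that ended without any single library of the pair (adjusted p = 0.0539 to 0.0884).

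Map1lc3a, or LC3A, was at 16.9, 11.6 and 11.6 FPKM with DMSO and at 35.7, 22.6 and 24.8 FPKM with PD325901. It was at 25.9, 21.9 and 20.8 FPKM with RAD001 and at 17.0, 17.2 and 20.4 FPKM with GDC0941. DMSO replicate 1 and PD325901 replicate 1 were the highest of their groups, and no inhibitor library overlapped DMSO. The PD325901 and RAD001 libraries overlapped each other, and their difference did not pass. The rises with PD325901 (0.99 ± 0.18, adjusted p = 0.00105) and RAD001 (0.75 ± 0.18, adjusted p = 0.00901) passed by limma. That with GDC0941 (0.44 ± 0.18, adjusted p = 0.10) did not, or did at 0.61 without DMSO replicate 1 (adjusted p = 0.0335) and 0.65 without replicate 1 of every group (adjusted p = 5.54e-04).

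Of the GABARAP branch, which acts later in closure and fusion, Gabarapl1 passed against DMSO with RAD001 and GDC0941, Gabarapl2 with RAD001 and Gabarap with PD325901. Gabarapl1 was at 32.6, 30.7 and 32.6 FPKM with DMSO, 39.3, 33.4 and 38.5 FPKM with PD325901, 43.6, 56.2 and 48.8 FPKM with RAD001 and 47.6, 72.5 and 61.4 FPKM with GDC0941. Its rises with RAD001 (0.61 ± 0.14) and GDC0941 (0.88 ± 0.14) passed (adjusted p = 0.00732 and 0.00141 by limma), and that with PD325901 (0.20 ± 0.14) did not. PD325901 lay below GDC0941 by -0.68 ± 0.14 (adjusted p = 0.00194). Its difference from RAD001 (-0.40 ± 0.14, adjusted p = 0.0316) ended without PD325901 replicate 2 or 3 or RAD001 replicate 2 or 3 and with median-ratio or quantile scaling (adjusted p = 0.0558 to 0.129).

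Gabarapl2, or GATE-16, rose with RAD001 (0.45 ± 0.10) from 49.2 ± 3.00 to 67.3 ± 2.82 FPKM. Gabarap itself made up 70.9% ± 0.514 of the summed ATG8 FPKM with DMSO and 67.8% ± 0.336 with RAD001, and Gabarapl1 5.40% ± 0.120 with DMSO and 8.22% ± 1.97 with GDC0941. Gabarap passed with PD325901 (0.30 ± 0.10, adjusted p = 0.0336 by limma), a call that ended without any library of the pair other than PD325901 replicate 2 (adjusted p = 0.0506 to 0.118). Its log2 change was 0.19 without PD325901 replicate 1. Gabarap did not differ between PD325901 and RAD001 (0.06, adjusted p = 0.665 by limma) or GDC0941 (0.03, adjusted p = 0.824). After quantile normalization it did (0.52 and 0.39, adjusted p = 3.79e-04 and 0.00258). With the replicate 1 libraries all left out, Gabarap passed with RAD001 and GDC0941 (adjusted p = 0.0456 and 0.0429) and not with PD325901 (0.0940), and Gabarapl2 passed with GDC0941 (0.0229, with 0.0501 in all libraries).

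**Figure D3:**
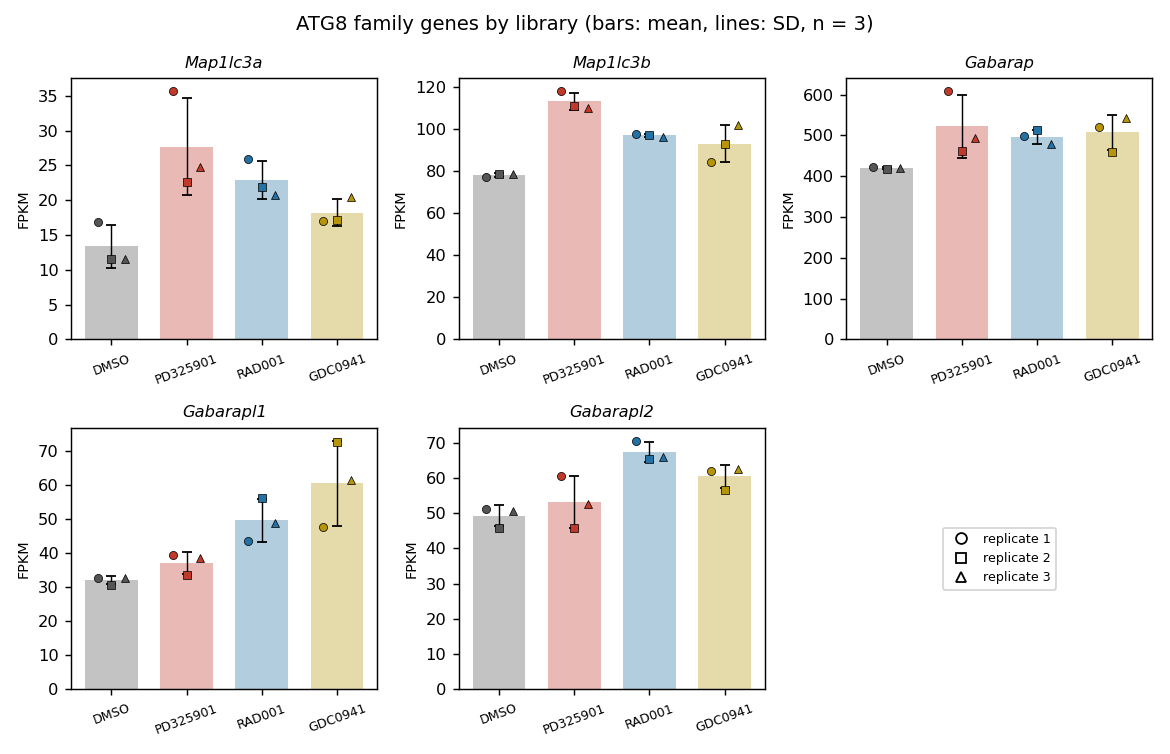
FPKM (y axis) of the 5 ATG8 family genes in each library by group (bars, mean; lines, SD, n = 3; symbols, replicates). Map1lc3a and Map1lc3b reach their highest group means, 27.7 and 113 FPKM, with PD325901, Gabarapl2 its highest, 67.3 FPKM, with RAD001, and Gabarapl1 its highest, 60.5 FPKM, with GDC0941.

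Cargo receptor genes moved in opposite directions with PD325901. Bnip3l, or NIX, the receptor that removes mitochondria, was at 35.6, 29.6 and 32.2 FPKM with DMSO, 65.4, 52.8 and 56.9 FPKM with PD325901, 30.4, 36.7 and 37.0 FPKM with RAD001 and 37.9, 36.9 and 36.0 FPKM with GDC0941. PD325901 alone overlapped no other group. It was higher by 0.83 ± 0.10 than DMSO, 0.73 ± 0.10 than RAD001 and 0.64 ± 0.10 than GDC0941 (adjusted p = 1.08e-04, 1.56e-04 and 3.92e-04 by limma).

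Optn, or optineurin, a receptor for ubiquitin-coated mitochondria and bacteria, was low throughout, at 2.05, 1.30 and 1.88 FPKM with DMSO, 3.43, 3.22 and 3.21 FPKM with PD325901, 1.07, 1.05 and 1.21 FPKM with RAD001 and 0.686, 1.00 and 1.41 FPKM with GDC0941. It rose with PD325901 (0.65 ± 0.14, adjusted p = 0.00316 by limma), which exceeded RAD001 by 1.02 ± 0.14 and GDC0941 by 1.09 ± 0.14 (adjusted p = 1.30e-04 and 7.90e-05). The fall of Optn with GDC0941 (-0.44 ± 0.14, adjusted p = 0.0432) was -0.23 without replicate 1 of every group (adjusted p = 0.204) and -0.22 after quantile normalization (adjusted p = 0.288). It also ended without DMSO replicate 1 or 3 or GDC0941 replicate 1 or 2 (adjusted p = 0.0943 to 0.140), without the filter (0.0580) and in a fit of the 2 groups alone (0.138).

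Sqstm1, or p62, the receptor that is itself degraded by autophagy, was the exception. It was at 980, 440 and 442 FPKM with DMSO and at 338, 312 and 334 FPKM with PD325901. RAD001 gave 440, 574 and 543 FPKM and GDC0941 401, 450 and 478 FPKM. DMSO replicate 1 was far above the other 11 libraries, while all PD325901 libraries lay below all others. The fall with PD325901 was -0.81 ± 0.25 (adjusted p = 0.0207 by limma) and -0.43 without DMSO replicate 1 (adjusted p = 0.0172), and it ended without PD325901 replicate 2 (adjusted p = 0.0604) or with only the 2 groups compared (0.0504). For RAD001 the change of Sqstm1 against DMSO was -0.16 ± 0.25 (adjusted p = 0.657). It was 0.34 without replicate 1 of every group (adjusted p = 0.00346) and 0.28 with library weights (adjusted p = 0.0499), and 0.22 without DMSO replicate 1 alone (adjusted p = 0.192), so its direction rests on that library. Nbr1, a relative of p62, was at 0.08 to 0.21 against DMSO and did not pass with all libraries. With RAD001 Nbr1 passed without DMSO replicate 1 (0.28, adjusted p = 0.0414) and without replicate 1 of every group (0.29, 0.0298).

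The inhibitors were also compared with each other. Against RAD001, PD325901 was higher in 15 members (39.5%, beside 20.8% of all genes) and lower in 8 (21.1%, beside 29.4%), or higher in 18 and lower in 5 with median-ratio scaling (beside 24.9% and 25.6%). Against GDC0941 it was higher in 15 (39.5%, beside 20.9%) and lower in 5 (13.2%, beside 30.7%), or 19 and 3 with median-ratio scaling (beside 24.9% and 25.8%). RAD001 and GDC0941 differed in 1 member each way, Atg2a higher and Atg5 lower with RAD001 (2.63% each, beside 9.35% and 8.09% of all genes), or in 4 each way (beside 17.9% and 15.4%) without replicate 1 of every group. Both comparisons of PD325901 share its libraries. Of the 23 calls against RAD001 14 held without any single library, and of the 20 against GDC0941 13 did. The calls that ended at such an omission were those of Becn1, Uvrag, Atg2a, Atg7, Atg12, Map1lc3b, Gabarapl1, Gabarapl2 and Sqstm1 against RAD001 (adjusted p = 0.0507 to 0.167) and those of Ulk2, Atg14, Atg9a, Wipi2, Atg16l1, Atg4c and Map1lc3a against GDC0941 (adjusted p = 0.0501 to 0.150). With median-ratio scaling the differences of Atg2a, Gabarapl1 and Sqstm1 from RAD001 (adjusted p = 0.107, 0.0884 and 0.0771) and of Wipi2 and Atg16l1 from GDC0941 (0.118 and 0.0946) did not pass. With the replicate block, Ulk2 passed against RAD001 as well (adjusted p = 0.0326), and Atg7 and Sqstm1 did not (adjusted p = 0.0515 and 0.0549).

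**Figure D4:**
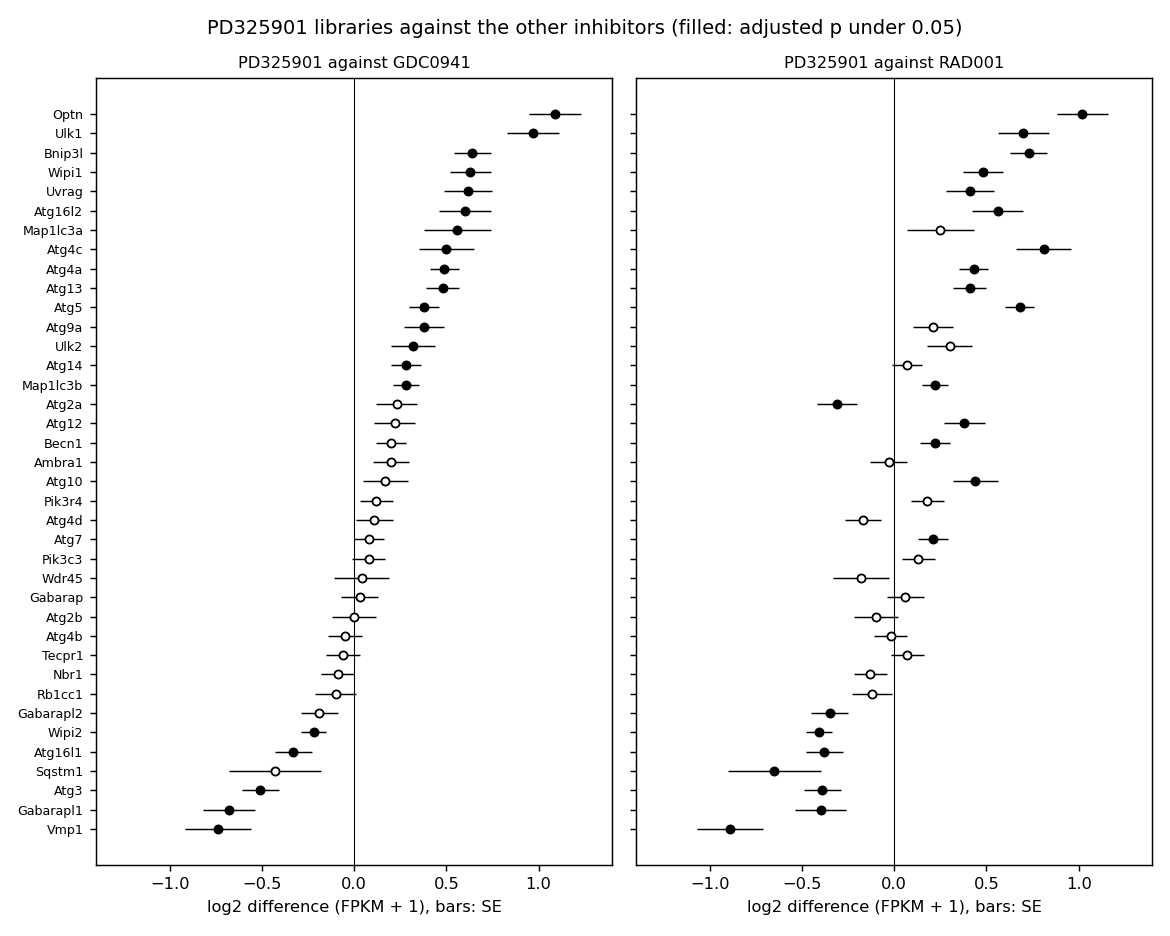
Log2 difference of the PD325901 libraries from the GDC0941 libraries (left) and the RAD001 libraries (right) for each member, ordered by the left panel (x axis, log2 of FPKM + 1; lines, SE; filled, adjusted p under 0.05). Optn, Ulk1 and Bnip3l lie at 0.64 or above in both panels, and Vmp1 at -0.74 and -0.89.

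Around the machinery, a list of 58 tested genes of its regulators, fusion factors and further receptors had 18 genes higher and 7 lower with PD325901 (31.0% and 12.1%, beside 18.4% and 28.2% of all genes). With RAD001 the counts were 10 and 9 (17.2% and 15.5%, beside 15.4% and 15.9%) and with GDC0941 4 and 7 (6.90% and 12.1%, beside 11.6% and 12.7%), for RAD001 near the share of all genes. The medians were 0.09, 0.05 and 0.06. Genes of the MiT/TFE factors, which switch on autophagy and lysosome genes, differed by inhibitor. Tfeb was at 16.1, 18.3 and 19.2 FPKM with DMSO, 41.3, 39.2 and 37.3 FPKM with PD325901, 25.2, 23.9 and 22 FPKM with RAD001 and 25.7, 27.9 and 31.1 FPKM with GDC0941. It rose with each (1.10 ± 0.09, 0.39 ± 0.09 and 0.63 ± 0.09, adjusted p = 8.54e-06, 0.00876 and 8.98e-04 by limma), and PD325901 exceeded RAD001 by 0.71 ± 0.09 and GDC0941 by 0.46 ± 0.09.

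Mitf differed from Tfeb in the place of PD325901. It was at 10.7, 8.29 and 8.39 FPKM with DMSO, 7.75, 8.54 and 8.16 FPKM with PD325901, 20.2, 16.7 and 17.7 FPKM with RAD001 and 19.8, 19.8 and 20.2 FPKM with GDC0941. It rose with RAD001 (0.93 ± 0.10) and GDC0941 (1.06 ± 0.10), and PD325901 lay below them by -1.07 ± 0.10 and -1.19 ± 0.10 (adjusted p = 9.18e-06 and 4.09e-06 by limma). Tfe3 rose with RAD001 (0.50 ± 0.10), and with GDC0941 (0.25 ± 0.10) passed only without GDC0941 replicate 1 among the single omissions (adjusted p = 0.0181). Tfec passed with PD325901 (1.37 ± 0.45, adjusted p = 0.0258), but not when DMSO replicate 1 or a single PD325901 library was left out (adjusted p = 0.0550 to 0.0825), and its GDC0941 libraries were at 13.0, 50.6 and 51.2 FPKM. The GDC0941 change of Tfec was 0.92 ± 0.45 (adjusted p = 0.159) and 1.55 without GDC0941 replicate 1 (adjusted p = 0.00243). Foxo3 did not pass against DMSO with all libraries, at 0.18 ± 0.15, 0.38 ± 0.15 and -0.27 ± 0.15, while it passed with PD325901 and RAD001 without replicate 1 of every group (adjusted p = 0.0388 and 0.0148).

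Ncoa4, the receptor that carries ferritin to the lysosome, rose with PD325901 (1.18 ± 0.09) from 48.1 ± 2.11 to 111 ± 13.9 FPKM and fell with RAD001 (-0.52 ± 0.09) and GDC0941 (-0.39 ± 0.09). PD325901 exceeded RAD001 in Ncoa4 by 1.70 ± 0.09 (adjusted p = 1.38e-07 by limma) and GDC0941 by 1.56 ± 0.09 (adjusted p = 3.17e-07). Bnip3, the paralog of Bnip3l, fell with each inhibitor (-1.03 ± 0.25, -1.58 ± 0.25 and -1.22 ± 0.25), with DMSO replicate 1 at 66.5 FPKM above the other DMSO libraries at 30.6 and 32.9 FPKM.

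Of 18 tested genes of mTOR complex 1, AMPK and their upstream regulators, 2 rose and 2 fell with PD325901 (11.1% each, beside 18.4% and 28.2% of all genes), 4 and 4 with RAD001 (22.2% each, beside 15.4% and 15.9%), and 0 and 4 with GDC0941 (0% and 22.2%, beside 11.6% and 12.7%). The list's median log2 changes were 0.04, 0.11 and 0.00, and only its largest changes are named. Among these were genes of proteins that restrain mTOR complex 1. The sestrin genes Sesn1 (-1.32 ± 0.20 and -0.96 ± 0.20), Sesn2 (-0.78 ± 0.09 and -1.37 ± 0.09) and Sesn3 (-1.0 ± 0.17 and -1.37 ± 0.17) fell with RAD001 and GDC0941, and so did Ddit4, or REDD1 (-1.46 ± 0.29 and -2.29 ± 0.29). None of these 4 passed with PD325901 (-0.62 to 0.22) in the fit of all libraries, while Ddit4 did without DMSO replicate 2 (adjusted p = 0.0448 by limma). Deptor, a subunit that inhibits mTOR, passed with PD325901 (0.90 ± 0.30, adjusted p = 0.0278 by limma), except without DMSO replicate 1 or PD325901 replicate 2 or 3 (adjusted p = 0.0893 to 0.110) or with no filter (0.0506). Fnip2, a folliculin partner, passed upward with PD325901 (0.73 ± 0.27, adjusted p = 0.0439) but was at 0.43 without DMSO replicate 1 (adjusted p = 0.167) and missed the threshold without DMSO replicate 2 or PD325901 replicate 2 or 3 (adjusted p = 0.0647 to 0.156). It passed downward with RAD001 (-0.97 ± 0.27, adjusted p = 0.0191), but not without replicate 2 or 3 of DMSO or replicate 1 or 3 of RAD001 (adjusted p = 0.0509 to 0.0809). Atg9b, a paralog of Atg9a, fell with PD325901 (-1.37 ± 0.25) and RAD001 (-1.19 ± 0.25) from 2.07 ± 0.369 FPKM, and its GDC0941 change (-0.33 ± 0.25) was -0.69 and passed without GDC0941 replicate 1 (adjusted p = 0.00559).

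**Figure D5:**
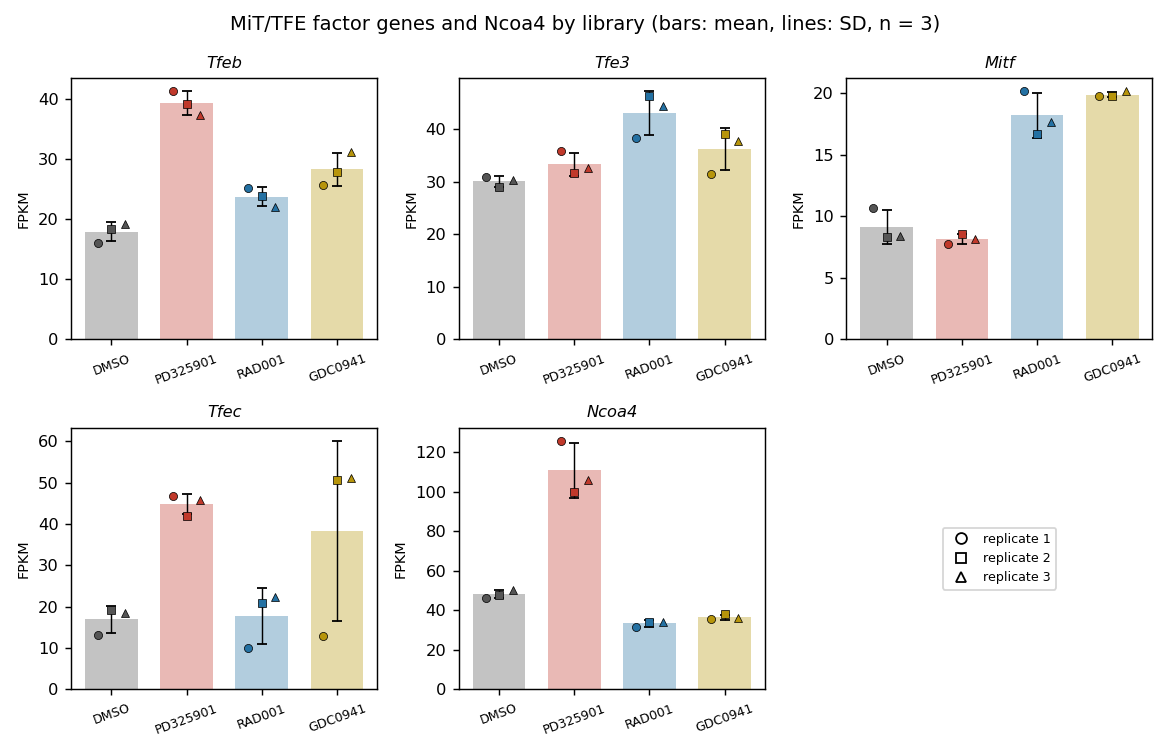
FPKM (y axis) of the 4 MiT/TFE factor genes and of Ncoa4 in each library by group (bars, mean; lines, SD, n = 3; symbols, replicates). Tfeb and Ncoa4 have their highest means with PD325901 (39.3 and 111 FPKM), while Mitf is at 18.2 and 19.9 FPKM with RAD001 and GDC0941 against 9.13 FPKM with DMSO.

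Markers of mature myeloid cells also differed between the groups, in directions that varied by list and inhibitor. The summed level of 8 mature neutrophil markers was 16700 to 17500 FPKM with DMSO, 34500 to 45100 with PD325901, 21000 to 25000 with RAD001 and 7960 to 12200 with GDC0941. Of these markers 5 rose and 0 fell with PD325901 (62.5% and 0%, beside 18.4% and 28.2% of all genes), 3 and 0 with RAD001 (37.5% and 0%, beside 15.4% and 15.9%), and 2 and 5 with GDC0941 (25% and 62.5%, beside 11.6% and 12.7%). The 10 macrophage markers summed to 1460 to 1610 FPKM with DMSO, 1790 to 2880 with PD325901, 2260 to 2450 with RAD001 and 1990 to 2440 with GDC0941. The single genes went both ways. With PD325901 4 were higher and 3 lower (40% and 30%, beside 18.4% and 28.2% of all genes). The counts were 3 and 4 with RAD001 (30% and 40%, beside 15.4% and 15.9%). With GDC0941 they were 1 and 2 (10% and 20%, beside 11.6% and 12.7%). The platelet factor gene Pf4, the 1 of 4 megakaryocyte markers that reached the 1 FPKM mean, fell with PD325901 (-2.50 ± 0.37) and GDC0941 (-4.23 ± 0.37) and rose with RAD001 (1.35 ± 0.37). The summed megakaryocyte list was at 77.1 to 133 FPKM with DMSO, 10.8 to 35.6 with PD325901, 215 to 278 with RAD001 and 3.72 to 4.76 with GDC0941. In bulk RNA, more cells of a type and more RNA per cell cannot be told apart, and the part of these markers in the members' changes was not tested.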

How the data were processed

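RNA-seq libraries of 12 samples, 3 in each of 4 groups, were analysed from 1 deposited table of FPKM values per gene symbol (23234 genes). The authors made the FPKM with TopHat2 2.0.4 and Cuffdiff on mm9, per the submitters' processing notes. The annotation used and how libraries were scaled: not given in the sources used here. Absolute depth is unknown. Steps between low values, below 0.3 FPKM, gave relative depths of 0.846 to 1.21 of DMSO replicate 1.

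The 10305 genes averaging 1 FPKM or more were fitted as log2(FPKM + 1) with limma 3.58.1 in R 4.3.3, using 4 group means (8 residual degrees of freedom) and eBayes with a trend. The 6 contrasts were tested two-sided with Benjamini-Hochberg adjustment, and the procedure was tested on simulated data. The simulation drew independent noise for each library and held no deviation of replicate 1. It therefore cannot test the calls under such a deviation. SD values are of FPKM within a group. The members, lists and tests were chosen with earlier results of these data known.

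Values in every library are given for the 15 members with a call and a log2 change of at least 0.5 in size against DMSO, and for the most abundant member of a role without such a call (Becn1). Other members appear with log2 changes, ranges or group means. Related genes are named when among the 6 largest changes past the threshold, and Tfeb, Tfe3, Mitf, Tfec and Foxo3 always.

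Deviations of same-numbered libraries from their group means correlated above 0.1 in all 3 pairs for PD325901 against DMSO (lowest r = 0.183), RAD001 against DMSO (0.201), PD325901 against RAD001 (0.149) and RAD001 against GDC0941 (0.309), across genes. But of the 3 libraries of the first group, only 3, 1, 1 and 2 in these comparisons correlated best with their own number. The labels name no pairing, so the replicate block is an alternative, as are other pseudocounts, filters, scalings, library weights, fits of 2 groups and left-out libraries. Promoter windows came from RefSeq (GRCm38.p6), matched by symbol, and no coordinates were converted.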

Additional observations from a re-analysis of the deposited data

How the results depend on the processing

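Against DMSO the members' counts were 15 higher and 1 lower for PD325901, 13 and 2 for RAD001, and 6 and 4 for GDC0941. Leaving out each replicate in turn gave 12 to 15 and 0 to 1, 10 to 13 and 0 to 2, and 4 to 7 and 1 to 3. The shares of all genes there were 14.8% to 15.8% higher and 23.3% to 25.9% lower for PD325901. They were 10.5% to 15.3% and 11% to 16.3% for RAD001, and 6.85% to 13.4% and 9.25% to 17.1% for GDC0941. For PD325901 against RAD001 the omissions gave 11 to 12 higher and 5 to 8 lower (beside 17.4% to 19.7% and 24.8% to 27.5%). For PD325901 against GDC0941 they gave 12 to 15 and 4 to 6 (17.8% to 21.8% and 25.8% to 30.3%). RAD001 against GDC0941 had 1 to 3 and 0 to 2 (5.56% to 10.5% and 3.26% to 8.81%). With library weights, 23 members were higher with PD325901 (beside 28.9% of all genes), 21 higher and 5 lower with RAD001 (34.9% and 32.3%), 10 higher with GDC0941 (17.1%), and 3 higher and 2 lower for RAD001 against GDC0941 (16.7% and 12.9%). With only the 2 groups compared, 0 were lower for PD325901 and for GDC0941 against DMSO (beside 31.8% and 9.89% of all genes). In such a fit 0 differed either way between RAD001 and GDC0941 (beside 4.41% higher and 2.4% lower). With no filter, 1 was lower with RAD001 (beside 11%) and 2 with GDC0941 (beside 9.14%), and after quantile normalization 1 was lower with RAD001 (beside 17.6%). Median-ratio scaling and quantile normalization each left 5 members lower for PD325901 against RAD001 (beside 25.6% and 25%) and 3 against GDC0941 (beside 25.8% and 27.5%). Without replicate 1 of every group, 13 were higher with GDC0941 (beside 18.9%) and 4 were higher and 4 lower for RAD001 against GDC0941 (beside 17.9% and 15.4%). The Sqstm1 change with RAD001 (-0.16) turned to 0.34 there and to 0.28 with library weights. With the replicate number as a block the counts were 16 and 1, 14 and 2, and 8 and 4 against DMSO. All genes there had 20.4% and 30.5%, 17.6% and 18.4%, and 13.7% and 15%. Between inhibitors the block gave 15 and 7, 15 and 5, and 1 and 1. All genes there had 22.8% and 31.3%, 22.5% and 32%, and 11.8% and 10.6%. For GDC0941 against DMSO the numbers are not shown to pair the libraries (r = 0.303, 0.0983 and 0.0354), and Map1lc3a and Gabarapl2 passed with the block (adjusted p = 0.0396 and 0.0177). Nor are they shown to for PD325901 against GDC0941 (r = 0.233, 0.261 and -0.139). The causes were not tested. Of 4281 values of single genes under an alternative, 3971 kept their side of the threshold, 171 lost it, 137 gained it and 2 reversed with a call. Sign changes with no call in either fit, 143 in all, are among the 3971. So are other values with no call in either fit, and the 3971 are not a share of calls that held. Against DMSO 12 of 16, 10 of 15 and 5 of 10 member calls held without any single library. Members below a mean of 5 FPKM could not be fitted under the filter at that level. Depth per library is unknown, so no counting error can be given.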
